A study of Homo sapiens with 6 samples.

Results

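Poly(A)-binding proteins and the proteins that pair with them were examined as mRNAs in an RNA immunoprecipitation sequencing (RIP-seq) experiment. The set held 8 genes of the 20020 in the deposited tables: the cytoplasmic poly(A)-binding proteins *PABPC1*, *PABPC3*, *PABPC4* and *PABPC1L*, the nuclear poly(A)-binding protein *PABPN1*, and the partners *PAIP1*, *PAIP2* and *PAIP2B*. The genes were chosen by their symbols, with the enrichment of *PABPC1* in RIP over input already known. The RIP-over-input values of the 8 genes are therefore given as a description, without p-values. All 8 had enough reads to be kept by the filter on low counts.

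RNA recovered by RIP of IGF2BP2, as the sample titles give it, from 786-O cells was sequenced in 3 libraries, and input RNA of the same line in 3 more. 786-O is a human cell line from a clear cell renal carcinoma and lacks functional VHL, and the labels give no treatment or genetic change for either group. IGF2BP2 binds mRNA in the cytoplasm and is known as one of the readers of N6-methyladenosine, and the comparison asks which transcripts were over- or under-represented in its pull-down. No control antibody's pull-down is among the libraries used, so each value is RIP over input and includes whatever an antibody or bead brings down. The labels do not say whether replicates came from separate cultures, and the spread between libraries may be technical.

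Poly(A)-binding proteins coat the adenosine tail at the end of nearly every mRNA. In the cytoplasm PABPC1 joins the tail to the cap-binding complex through EIF4G and favours translation, while PABPN1 acts in the nucleus during tail synthesis. PAIP1 binds PABPC1 and favours translation, whereas PAIP2 and its paralog PAIP2B compete for PABPC1 and repress it. PABPC1 also limits its own synthesis: the protein binds an adenosine-rich stretch near the start of its mRNA, in a complex described to hold IGF2BP1.

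The libraries held 33872621 to 44045835 counted reads in RIP and 25773819 to 27226405 in input. The mRNA of *IGF2BP2* itself averaged 263 ± 4.09 CPM in RIP libraries, with 121 ± 2.97 CPM in input libraries (SD, n = 3 each). CPM are read counts scaled to a common library total with TMM factors. All 10 markers of the renal line had reads enough to be tested. Of these, 6 were called higher and 4 lower, where 40.7% and 42.0% of all tested genes were. The renal markers summed to 6042 to 6407 CPM in RIP libraries and 5580 to 5824 CPM in input libraries. *VIM* alone averaged 3385 CPM in RIP and 4077 CPM in input, so the sum rests largely on that 1 gene. *PAX8* averaged 691 CPM in RIP and 416 CPM in input, and *CA9* 1.64 and 7.66 CPM. The 10 markers of endothelial, blood and fibroblast cells summed to 4.52 to 6.58 CPM in RIP libraries and 4.99 to 9.51 CPM in input libraries, and 3 of them could be tested. In bulk RNA, fewer cells that carry a transcript and less of it per cell cannot be told apart. A value is also a share of its library, so more of 1 transcript and less of the others cannot be told apart.

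The 8 genes went in opposite directions. *PABPC1*, *PABPC3* and *PAIP2B* were higher in RIP, with log2 fold changes of 2.30, 2.73 and 1.56. *PAIP1*, *PAIP2* and *PABPC1L* were lower, with log2 fold changes of -1.24, -1.26 and -1.36. *PABPC4* and *PABPN1* had overlapping RIP and input libraries. In the fit over all genes (edgeR's quasi-likelihood test, Benjamini-Hochberg adjusted p under 0.05), 3 of the 8 were called higher, 3 lower and 2 not called. Of the 12856 genes tested, 40.7% were called higher and 42.0% lower, together 82.7%, and in 83.1% the RIP libraries did not overlap the inputs, as in 6 of the 8 here. The contrast that brought the set to attention is the one counted, so nothing is read from these counts.

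**Figure D1:**
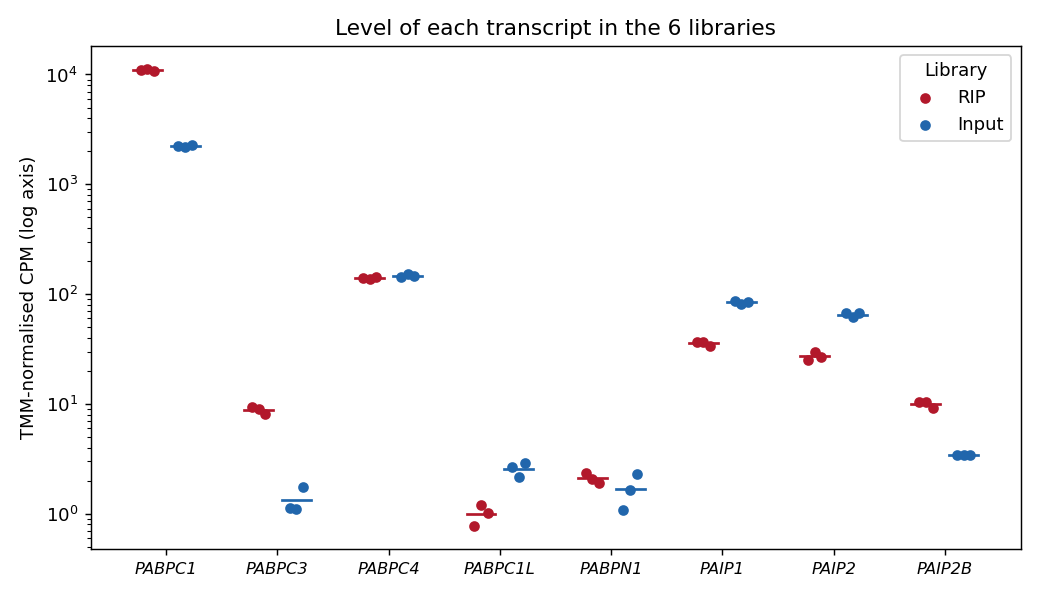
Level of each of the 8 transcripts in normalised CPM (log axis), with 1 point per library, RIP (red) left of input (blue), and a line at the mean of 3 libraries. *PABPC1* is at 10999 CPM in RIP and 2239 CPM in input on average, and the points of *PABPC4* and *PABPN1* overlap between the groups.

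*PABPC1*, the main cytoplasmic poly(A)-binding protein, lies on chromosome 8 (100702916 to 100722088, GRCh38.p14). It had 10914, 11269 and 10815 normalised CPM in RIP libraries 1, 2 and 3, against 2232, 2204 and 2280 CPM in inputs 1, 2 and 3. The lowest RIP library lay far above the highest input, and the libraries of each group differed little. The mean was 10999 ± 239 CPM in RIP and 2239 ± 38.5 CPM in input, a 4.91-fold difference (log2 fold change 2.30, SE 0.023, n = 3 each). Over all alternatives the log2 fold change ran from 2.05 to 2.32.

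This transcript was a visible part of the libraries. Its reads made up 1.01% ± 0.0174 of all counted reads in RIP and 0.243% ± 0.00423 in input (SD, n = 3 each). By read count, which favours long genes, it ranked 6 in every RIP library, against 24, 25 and 24 in the inputs. Per gene length (FPKM) it ranked 15 in every RIP library, against 64, 71 and 61 in the inputs. Only 77 of the 12856 genes tested had a higher log2 fold change, and 28 of those had a mean of at least 100 CPM. Among the 81 genes whose mean reached 1000 CPM it stood at rank 2, after *PAICS*, an enzyme of purine synthesis, at 2.40. The median log2 fold change of those 81 genes was 0.26, with 46 called higher and 27 lower, beside 40.7% and 42.0% of all tested genes.

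*PABPC3*, an intronless copy of *PABPC1* whose transcription is best known from testis, lies on chromosome 13 (25096136 to 25099254). Its gene length in the tables, 3119 nt, equals its whole span on the chromosome, whereas *PABPC1* has 4826 nt in a span of 19173 nt. The RefSeq annotation also places a noncoding RNA gene, *LOC124900613*, over all 3119 nt of *PABPC3*. The row held 326, 363 and 252 reads in RIP libraries 1, 2 and 3, against 32, 33 and 49 reads in the inputs. After scaling these were 8.80 ± 0.652 CPM in RIP and 1.33 ± 0.364 CPM in input (SD, n = 3 each), a log2 fold change of 2.73 with an SE of 0.215. All RIP libraries lay above all inputs.

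The reads of *PABPC3* were a small share of those of *PABPC1* in both groups. They amounted to 0.0854%, 0.0800% and 0.0746% of the *PABPC1* reads in RIP libraries 1, 2 and 3, against 0.0505%, 0.0503% and 0.0766% in the inputs, and these ranges overlap. The copies are near-identical and how reads with several alignments were counted is not given in the sources used here. A read from one can thus be counted for the other, and both the level and the log2 fold change of *PABPC3* are uncertain. With both sets of reads added together the log2 fold change was 2.30, that of *PABPC1* alone. So small a share could hardly change it, and the sum does not bear on the value of *PABPC3*.

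*PABPC4*, also called inducible poly(A)-binding protein, lies on chromosome 1 (39560816 to 39576790). It had 139, 138 and 144 CPM in RIP libraries 1, 2 and 3, against 143, 152 and 146 CPM in the inputs. RIP library 3 lay above input 1, so the groups overlapped. The mean was 140 ± 3.21 CPM in RIP and 147 ± 4.32 CPM in input (SD, n = 3 each), with a log2 fold change of -0.066 (SE 0.031). The call of this small difference depended on the scaling, and its sign on the length correction. Scaled by library size only, it was called lower at -0.31, with the trend of enrichment on gene length removed it was 0.070, and the median of all genes was -0.26 under that scaling and -0.024 under TMM. An antisense gene, *PABPC4-AS1*, shares 8134 nt of its span, and whether reads were counted by strand is not given in the sources used here.

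The contrast with *PABPC1* can be read within each library, where no scaling between libraries enters. The FPKM of *PABPC1* (reads per gene length and library total) was 53.7, 56.0 and 51.5 times that of *PABPC4* in RIP libraries 1, 2 and 3. In inputs 1, 2 and 3 it was 10.7, 9.96 and 10.7 times that of *PABPC4*. *PABPC1* took 98.0% ± 0.0316 of the reads of the 8 genes in RIP and 88.0% ± 0.0933 in input (SD, n = 3 each).

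*PABPC1L*, the embryonic poly(A)-binding protein known for its role in oocytes, lies on chromosome 20 (44910060 to 44939316). It was scarce, with 27, 48 and 32 reads in RIP libraries 1, 2 and 3, against 75, 65 and 82 reads in the smaller inputs. Every RIP library held fewer reads than every input. The levels were 0.996 ± 0.211 CPM in RIP and 2.58 ± 0.374 CPM in input (SD, n = 3 each), a log2 fold change of -1.36 with an SE of 0.210. With the length trend removed it was -0.76.

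*PABPN1*, the nuclear protein that stimulates poly(A) polymerase, lies on chromosome 14 (23321457 to 23326163). It had 83, 84 and 60 reads in RIP libraries 1, 2 and 3, against 31, 49 and 65 reads in the inputs. The levels were 2.37, 2.08 and 1.92 CPM in RIP and 1.09, 1.65 and 2.32 CPM in input, so that input 3 lay above RIP libraries 2 and 3. The log2 fold change was 0.34 (SE 0.314). It was not called with all 6 libraries, but was called higher without input library 3, at 0.63, and with all libraries once the length trend was removed, at 0.54. The whole span of *PABPN1* lies inside the read-through gene *BCL2L2-PABPN1*, which held 1 to 3 reads in RIP libraries and 1 to 5 in inputs. The sources used here do not say how reads in both were treated, and the low level of *PABPN1* is uncertain. With the reads of both added together the log2 fold change was 0.28, but this sum cannot return any reads counted for neither gene.

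*PAIP1*, the partner that favours translation, lies on chromosome 5 (43526267 to 43557411). It had 36.3, 36.8 and 33.8 CPM in RIP libraries 1, 2 and 3, against 86.9, 81.6 and 84.5 CPM in the inputs. All RIP libraries lay well below all inputs. The mean was 35.6 ± 1.59 CPM in RIP and 84.4 ± 2.63 CPM in input, 2.37-fold lower in RIP (log2 fold change -1.24, SE 0.046, n = 3 each).

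*PAIP2*, the partner that displaces PABPC1 from the tail and represses translation, lies on the same chromosome (139341854 to 139369717). It had 25.3, 29.4 and 26.7 CPM in RIP libraries 1, 2 and 3, against 66.6, 61.4 and 67.4 CPM in the inputs. The groups did not overlap. The mean was 27.2 ± 2.09 CPM in RIP and 65.1 ± 3.28 CPM in input, 2.40-fold lower in RIP (log2 fold change -1.26, SE 0.076, n = 3 each), and -0.78 with the length trend removed. *PAIP2* shares 2522 nt of its span with *SLC23A1*, whose row held 41 to 66 reads in RIP libraries and 25 to 34 in inputs.

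The activating and the repressing partner thus had nearly the same log2 fold change, at -1.24 for *PAIP1* and -1.26 for *PAIP2*. With the length trend removed these were -1.05 and -0.78. Their ratio within a library was also alike in the groups. The FPKM of *PAIP1* was 1.01 ± 0.0785 times that of *PAIP2* in RIP and 0.997 ± 0.0294 times in input (SD, n = 3 each).

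*PAIP2B*, the paralog of *PAIP2* with the same repressive role, lies on chromosome 2 (71182738 to 71227103). It had 10.5, 10.5 and 9.26 CPM in RIP libraries 1, 2 and 3, against 3.42, 3.46 and 3.42 CPM in the inputs. All RIP libraries lay above all inputs. The inputs held only 97, 103 and 96 reads, and counts so low vary by sampling more than these values do. The small input SD and the SE are thus not read as precision. The mean was 10.1 ± 0.716 CPM in RIP and 3.43 ± 0.0228 CPM in input, 2.94-fold higher in RIP (log2 fold change 1.56, SE 0.060, n = 3 each).

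The 2 paralogs of the repressive partner therefore differed in direction. The FPKM of *PAIP2* was 6.27, 7.29 and 7.51 times that of *PAIP2B* in RIP libraries 1, 2 and 3, against 50.7, 46.1 and 51.1 times in the inputs. Of the summed FPKM of both, *PAIP2B* made up 12.5% ± 1.08 in RIP and 1.99% ± 0.114 in input (SD, n = 3 each). *PAIP2* remained the more abundant paralog in all 6 libraries. The FPKM of *PABPC1* over the summed FPKM of *PAIP1*, *PAIP2* and *PAIP2B* was 94.6 ± 2.61 in RIP and 8.57 ± 0.252 in input (SD, n = 3 each). These are ratios of mRNA and say nothing of protein.

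**Figure D2:**
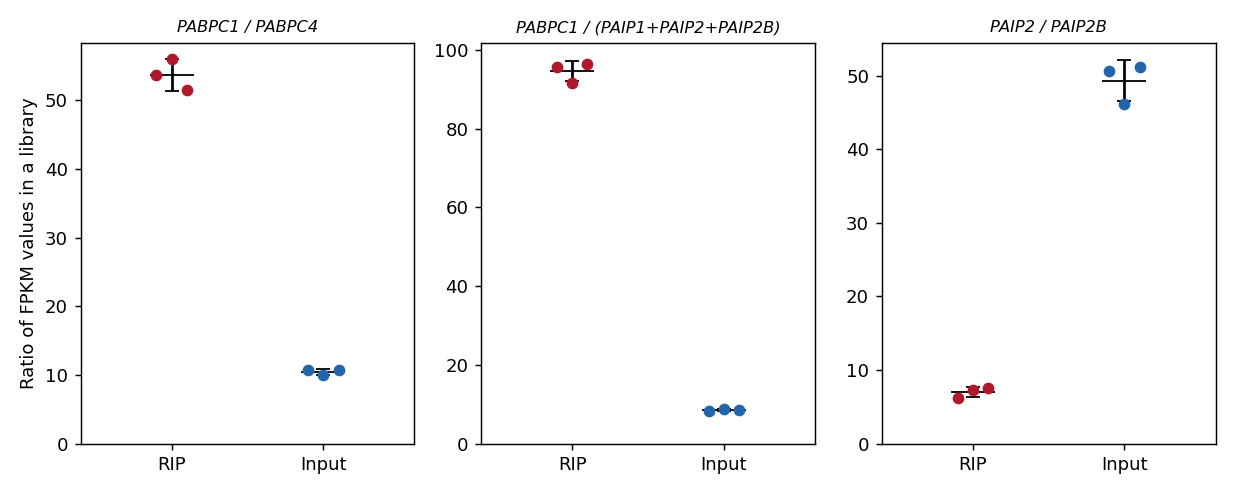
Ratios of FPKM values within single libraries (linear axes from 0), with 1 point per library, RIP left of input, and the mean ± SD of 3 libraries in black. *PABPC1* over *PABPC4* and *PABPC1* over its 3 partners were higher in every RIP library than in every input, and *PAIP2* over *PAIP2B* was lower.

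Levels between genes were compared per length, in FPKM. In RIP the order was *PABPC1* at 2096 ± 36.1, *PABPC4* at 39.0 ± 1.01, *PAIP1* at 10.4 ± 0.443, *PAIP2* at 10.3 ± 0.744, *PABPC3* at 2.60 ± 0.192, *PAIP2B* at 1.47 ± 0.102, *PABPN1* at 0.626 ± 0.0686 and *PABPC1L* at 0.428 ± 0.0888 (SD, n = 3 each). Of these neighbours *PAIP1* and *PAIP2* overlapped and the others did not. In input the order was *PABPC1* at 504 ± 8.77, *PABPC4* at 48.3 ± 1.76, *PAIP2* at 29.2 ± 1.33, *PAIP1* at 29.1 ± 0.697, *PABPC1L* at 1.31 ± 0.186, *PAIP2B* at 0.592 ± 0.00806, *PABPN1* at 0.586 ± 0.215 and *PABPC3* at 0.463 ± 0.127 (SD, n = 3 each). *PAIP1* and *PAIP2* overlapped there too, as did the last 3. *PABPC1* was thus the most abundant and *PABPC4* the next in both groups, while *PABPC1L* stood at place 5 in input and last in RIP.

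The log2 fold changes of the set spanned much of the range of the transcriptome, whose quartiles were -0.79 and 0.68. *PABPC3* lay above 99.8% of tested genes, *PABPC1* above 99.4% and *PAIP2B* above 95.8%. *PABPN1* lay above 63.2% and *PABPC4* above 48.4%. *PAIP1*, *PAIP2* and *PABPC1L* lay above 14.6%, 14.2% and 12.4%.

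**Figure D3:**
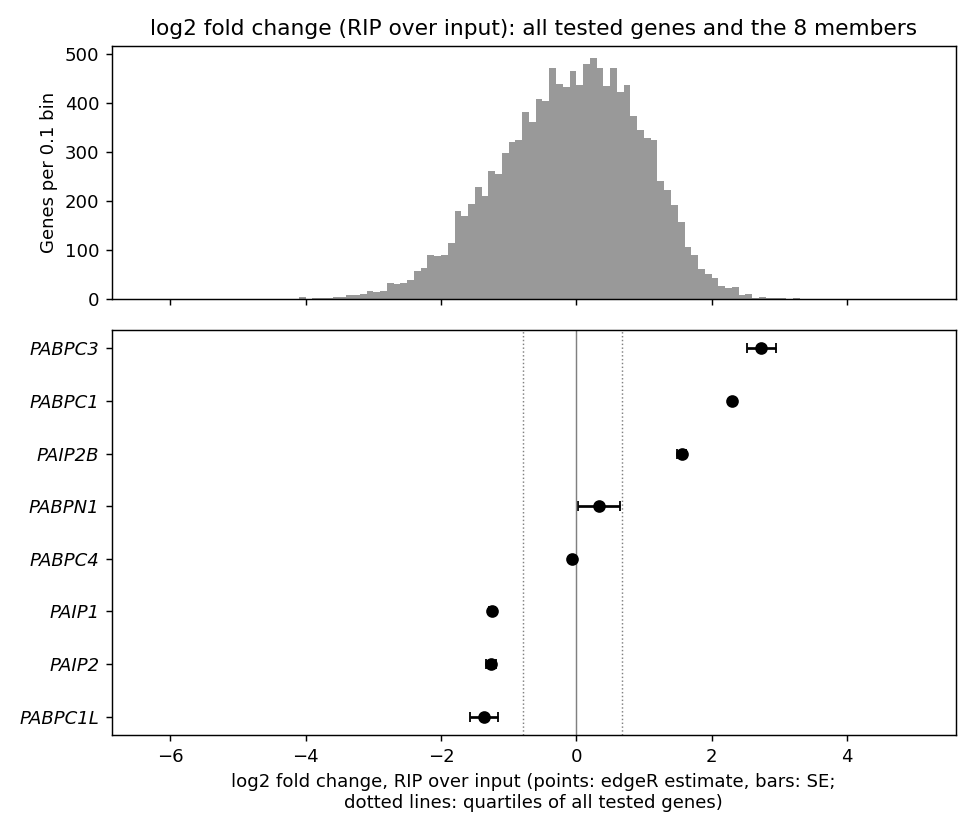
Upper panel, the log2 fold changes (RIP over input) of all 12856 tested genes in bins of 0.1. Lower panel, the 8 members with the SE over 3 libraries per group, and dotted lines at the quartiles of all tested genes (-0.79 and 0.68). Of the members, 3 lie right of the upper quartile, 3 left of the lower one and *PABPC4* and *PABPN1* in the middle.

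Log2 fold changes varied with gene length, and *PABPC1L* (2141 nt) and *PAIP2* (2424 nt) are the shortest of the set. The 2210 tested genes in a fixed band of lengths around *PABPC1L* had a median log2 fold change of -0.61, and the 2520 around *PAIP2* one of -0.48. Among those genes *PABPC1L* was above 22.5% and *PAIP2* above 21.6%, nearer to the middle than among all genes. *PAIP1* (3152 nt) was above 14.0% of the genes of its length, and *PABPC1* (4826 nt) above 99.1%. *PAIP2B* is the longest of the set at 6300 nt, and stood above 94.8% of genes of its length, whose median was 0.34. With the length trend removed, *PABPC1* had a log2 fold change of 2.13, *PABPC3* 2.93, *PAIP2B* 1.22 and *PAIP1* -1.05. Whether length shaped these values was not tested.

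**Figure D4:**
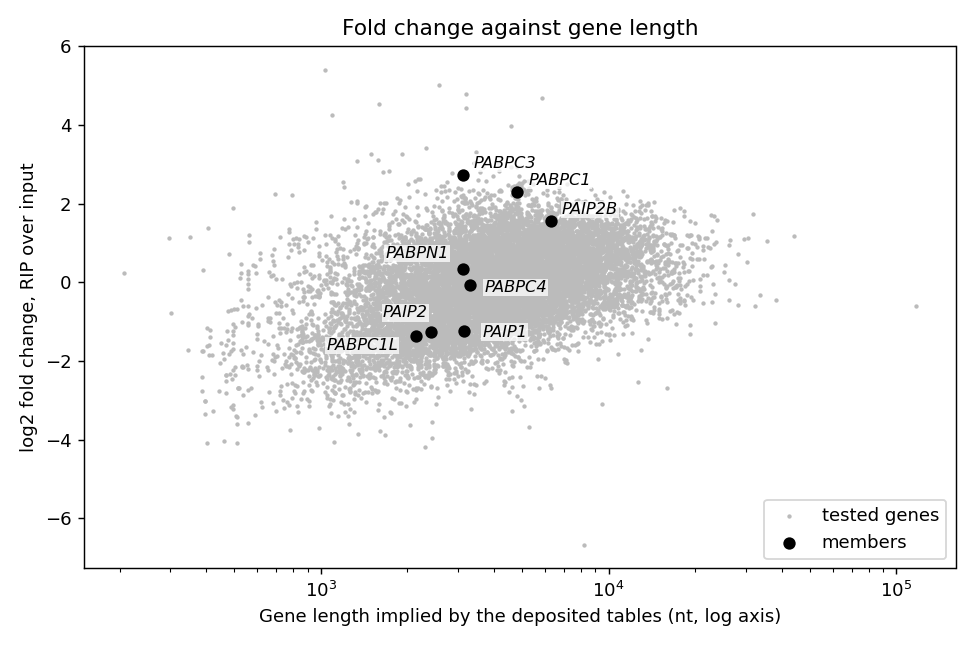
Log2 fold change (RIP over input) against the gene length implied by the deposited tables (log axis), with the 12856 tested genes in grey and the 8 members in black. *PAIP2* and *PABPC1L* lie at the short end of the set with low values, and *PABPC1* and *PABPC3* at the upper edge of the cloud.

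Other genes of the poly(A)-binding families had few or no counted reads, with the exception of *ZC3H14*, which encodes a nuclear zinc finger protein that binds poly(A). It stood at 65.9 ± 0.641 CPM in RIP and 64.3 ± 3.85 CPM in input (SD, n = 3 each), with a log2 fold change of 0.035 and an edgeR adjusted p of 0.518. Its value turned to -0.52, called lower, with the length trend removed. Its gene length in the tables is 19042 nt. *PABPC4L* held 14, 21 and 7 reads in RIP libraries 1, 2 and 3, against 3, 6 and 3 in the inputs, too few to be tested. *PABPN1L* was at 0 reads in all RIP libraries and at 0, 0 and 2 reads in the inputs, and *PABPC5* had 1 read in 1 RIP library and 0 in the other libraries. *PABPC1L2A* and *PABPC1L2B* had 0 reads in all 6 libraries. As the handling of reads with several alignments is not given, 0 counted reads need not mean that no transcript was present.

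The machinery that shortens poly(A) tails held genes of both directions, in numbers near the background. Genes named here and in the lists below were picked because they were called and changed most. Their adjusted p-values come with that choice and lend it no support. Of 19 deadenylation genes tested, 9 were called higher and 8 lower, where 40.7% and 42.0% of all tested genes were, with a median log2 fold change of 0.064 beside -0.024 for all tested genes. *CNOT4*, a ubiquitin ligase that associates with the CCR4-NOT deadenylase complex, rose 3.10-fold (147 ± 4.55 CPM in RIP, 47.6 ± 4.72 CPM in input, n = 3 each, edgeR adjusted p = 8.40e-19). *TOB2*, which recruits the deadenylase to PABPC1, rose 2.00-fold (edgeR adjusted p = 5.32e-17). *BTG3*, of the same family as TOB2, was 2.82-fold lower (13.1 ± 0.753 CPM in RIP, 36.9 ± 1.84 CPM in input, n = 3 each, edgeR adjusted p = 2.82e-16). *CNOT8*, a catalytic subunit, was 1.74-fold lower (edgeR adjusted p = 2.45e-14).

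The cap-binding complex, to which PABPC1 ties the tail, also had calls both ways. Of 13 genes 6 were called higher and 6 lower, again near the 40.7% and 42.0% of all tested genes, with a median log2 fold change of 0.061. *EIF4E*, the cap-binding protein, rose 3.84-fold (282 ± 16.9 CPM in RIP, 73.4 ± 2.09 CPM in input, n = 3 each, edgeR adjusted p = 5.03e-22), and *EIF4G3*, a scaffold that binds PABPC1, rose 2.37-fold (edgeR adjusted p = 3.65e-19). *EIF4EBP1*, an inhibitor of EIF4E, was 4.57-fold lower (9.77 ± 0.328 CPM in RIP, 44.7 ± 2.21 CPM in input, n = 3 each, edgeR adjusted p = 9.01e-20). *EIF4A2*, a helicase subunit, was 3.71-fold lower (edgeR adjusted p = 1.34e-20).

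Of 15 other proteins that bind PABPC1 or act on its complexes, 14 could be tested, with 10 called higher and 4 lower, beside 40.7% and 42.0% of all tested genes. No test compared the list with other genes. Their median log2 fold change was 0.47, or 0.23 when scaled by library size only and 0.089 with the length trend removed. Under that length correction 7 of the list were called higher and 4 lower, where calls over all 12856 tested genes were 5166 and 5148. *ATXN2L* and *ATXN2*, stress granule proteins of which ATXN2 binds PABPC1, rose 3.23-fold and 2.49-fold (for *ATXN2*, edgeR adjusted p = 1.19e-18). *ATXN2L* reached 715 ± 29.4 CPM in RIP, with 222 ± 4.93 CPM in input (SD, n = 3 each, edgeR adjusted p = 5.14e-22). *MKRN1*, a ubiquitin ligase that binds PABPC1, was 1.51-fold lower (49.0 ± 0.735 CPM in RIP, 74.1 ± 0.736 CPM in input, n = 3 each, edgeR adjusted p = 1.37e-11).

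Genes for making or extending the tail numbered 9 called higher and 10 lower of 24, near the 40.7% and 42.0% of all tested genes. Their median log2 fold change was -0.022. With the length trend removed, 6 were called higher and 12 lower, where calls over all 12856 tested genes were 5166 higher and 5148 lower. Scaled by library size only, the counts were 7 and 13, where calls over all genes were 4115 higher and 6476 lower. *PAPOLA*, the main poly(A) polymerase, rose 2.10-fold (639 ± 32.0 CPM in RIP, 305 ± 10.4 CPM in input, n = 3 each, edgeR adjusted p = 9.04e-18), and *NUDT21*, a cleavage factor subunit, rose 1.83-fold (edgeR adjusted p = 3.17e-15). *CSTF3*, of the cleavage stimulation factor, was 2.81-fold lower (7.96 ± 1.62 CPM in RIP, 22.3 ± 1.91 CPM in input, n = 3 each, edgeR adjusted p = 6.71e-11). *CPSF3*, the endonuclease that cuts the pre-mRNA, was 2.52-fold lower (edgeR adjusted p = 8.02e-15).

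**Figure D5:**
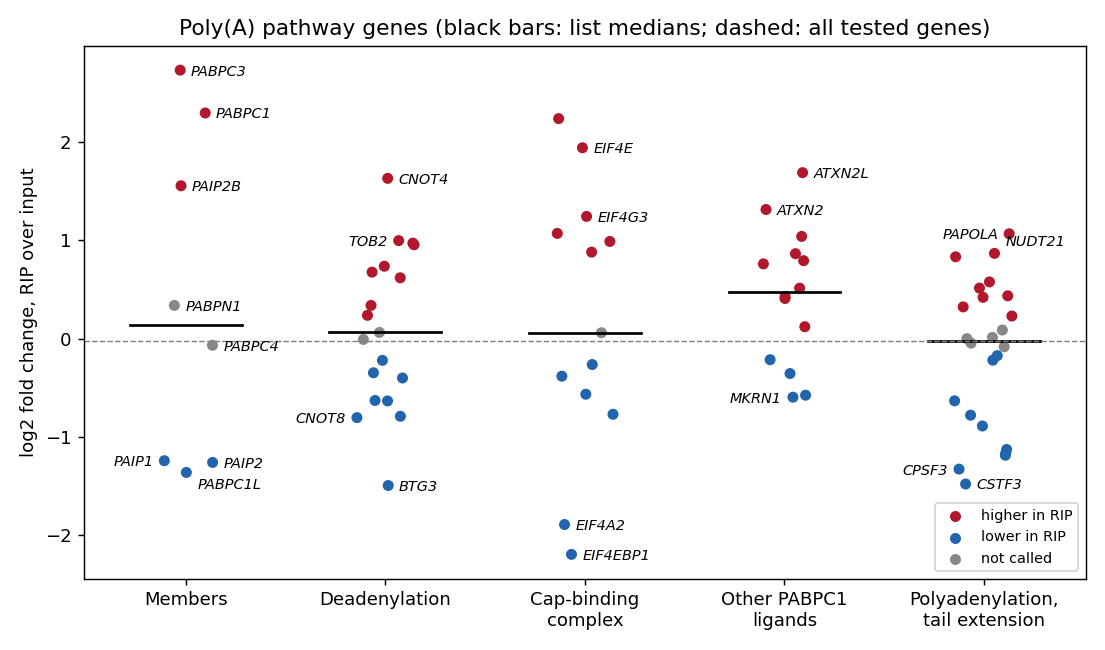
Log2 fold change (RIP over input) of the 8 members and of the tested genes of 4 pathway lists, with 1 point per gene coloured by the edgeR call, black bars at list medians and a dashed line at the median of all tested genes (-0.024). Each list has genes called higher and genes called lower.

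For the 3 most abundant members, the genes nearest in pattern were sought by the Euclidean distance of log2 CPM, centred over the 6 libraries, among 9917 genes whose mean reached 5 CPM. *PROSER1* was nearest to *PABPC1*, at a distance of 0.026, followed by *TAB2* at 0.070 and *NPIPB5* at 0.082. Their log2 fold changes were 2.29, 2.28 and 2.31, beside 2.30 for *PABPC1*. As replicates lay close together, the distance mostly picks genes of equal log2 fold change, and no shared regulation is read from it. *PYGO2*, *SYS1* and *HMGN1* were nearest to *PABPC4*, at 0.034 to 0.049. *SRSF6*, *TOP2A* and *NUP88* were nearest to *PAIP1*, at 0.038 to 0.062. *NPIPB5* belongs to a family of near-identical copies, so its count is uncertain.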

How the data were processed

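The authors deposited raw read counts per gene symbol and FPKM values for the same 20020 genes in 6 libraries. Tools named in the submitters' processing notes are DESeq2, featureCounts, STAR 2.7.10a and fastp 0.23.2, and the build is hg38. Annotation, strand setting and handling of multiple alignments: not given in the sources used here. Each deposited FPKM equals the count divided by the column total and 1 whole length per gene. All columns were matched to samples by title.

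Genes were kept by filterByExpr (12856 genes), scaled by TMM and fitted with edgeR 4.0.16 in R 4.3.3, with robust quasi-likelihood and no term but the group. SEs come from the spread of log2 CPM (prior count 2). The fit was also run on simulated counts with few changed genes and a common spread. That setting differs from these data, where most genes were called, so nothing is read from it. Coordinates and names are from RefSeq (GRCh38.p14), which matched all 8 members.

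The members and lists were chosen with earlier results of these data known. Named in each list were the 2 called genes most higher and the 2 most lower with at least 5 CPM; a gene this rule names is not reported here. Alternatives were other scalings, filters, DESeq2 1.42.0, limma 3.58.1 on log2 FPKM, a length correction (loess, span 0.3), a replicate block and leaving out each library. No replicates agreed within sampling noise (chi-square per gene 3.33 to 8.06).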

Additional observations from a re-analysis of the deposited data

How the results depend on the processing

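*PABPC1*, *PABPC3*, *PABPC1L*, *PAIP1*, *PAIP2* and *PAIP2B* kept direction and call under every alternative in which they were tested, with log2 fold changes of 2.05 to 2.32, 1.30 to 2.97, -1.60 to -0.69, -1.48 to -1.05, -1.50 to -0.78 and 0.63 to 1.62. *PABPC1L* and *PABPN1* were not tested at a filter of 5 CPM in 3 libraries. *PABPC4* was called lower with upper-quartile scaling (-0.15), library size alone (-0.31) and limma on log2 FPKM with a pseudocount of 1 (-0.30) or of 0.1 (-0.31), and was 0.070, not called, with the length trend removed. *PABPN1* was called higher with the length trend removed (0.54), and ran from 0.11 to 0.63 with single libraries left out, called only without input replicate 3. *ZC3H14* turned to -0.052 with upper-quartile scaling, -0.21 with library size alone, -0.52 with the length trend removed, and -0.16 and -0.20 in the fits on FPKM. The cause of these changes was not tested.

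Calls over all genes were 5232 higher and 5403 lower, and ran from 4063 to 5407 and from 4689 to 6476. Higher calls were 49.2% of all calls, 38.9% with library size alone and 38.7% to 38.8% on log2 FPKM. The median log2 fold change changed sign between alternatives for deadenylation (-0.19 to 0.11), the cap-binding complex (-0.18 to 0.38) and polyadenylation (-0.26 to 0.020), and the counts of calls in the 4 lists stayed within 1.5 times. The titles number RIP and input libraries alike. No shared deviation by number was seen, with correlations of deviations of 0.036, -0.046 and 0.035 for numbers 1, 2 and 3. With 3 libraries per group this cannot show that the libraries were unpaired. With the replicate block 5210 genes were called higher and 5390 lower, and *PABPC1* had 2.30. Low counts limit *PABPC1L*, *PABPN1* and the inputs of *PABPC3* and *PAIP2B*.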
